A study of Mus musculus with 24 samples.

Results

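The collagen chain genes are the genes whose symbol has the form Col, a type number, the letter a and a chain number. On these liver arrays 44 of the 24704 genes tested had such a symbol, and all 44 are described here. They were grouped by the structure that their protein forms, which gave 11 fibrillar, 9 basement membrane, 6 beaded filament, 9 fibril-associated, 3 short-chain and 4 transmembrane collagens, with 2 remaining genes (Col26a1 and Col28a1). The question was how these genes differed between the diets, the genotypes and the sexes. Whole-liver RNA was hybridised to 24 Affymetrix arrays, 3 for each of 8 groups. HepCAV1ko mice carried floxed Cav1 alleles and a Cre recombinase under the albumin promoter, which is active in hepatocytes. HepCAV1wt mice, the reference, were their littermates with the same floxed alleles and no Cre. Males and females of both genotypes received either the MCD diet, deficient in methionine and choline, or a control diet with both nutrients. Feeding began at 8 weeks of age and lasted 4 weeks, so all livers came from mice of 12 weeks. All values are on the log2 scale, where a step of 1 means a doubling of the signal. The levels of different genes come from different probes and are not ranked against each other, and a level is called dim only where it lies below the median of all genes (3.83).

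Collagens are triple helices of 3 chains each. The fibrillar types I, III and V make the banded fibres of scar and stroma, type IV makes the net of basement membranes, and type VI makes fine beaded filaments between the cells and the fibres. In a healthy liver most fibrillar collagen lies around portal tracts and large veins. In fibrosis, hepatic stellate cells and other mesenchymal cells turn into myofibroblasts and deposit types I and III. The MCD diet is a common mouse model of steatohepatitis, in which fat, inflammation and fibrosis of the liver develop together.

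Within a group, correlations between arrays ran from 0.981 to 0.991, and 0 arrays were identical. The sex-linked genes Xist and Eif2s3y gave the sex of the label for 24 of 24 arrays. It is not stated that the 3 arrays of a group come from separate mice, so the p-values describe the spread among arrays, which may be technical. Cav1, the deleted gene, had group means of 3.76 to 4.42 and was lower in HepCAV1ko in all 4 comparisons of genotypes. The log2 difference was -0.65 in control-fed males and -0.45 in control-fed females, but -0.05 and -0.08 in MCD-fed males and females. None of the 4 passed (lowest adjusted p = 0.792, limma), so the array values of whole liver do not check the genotype labels. The 5 hepatocyte markers averaged 12.4 to 12.6 on every array. In whole tissue, more cells of a type and more RNA per cell cannot be told apart.

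Collagen expression moved in both directions upon MCD diet. Averaged over both genotypes and both sexes, 7 of 44 genes rose and 5 fell at an adjusted p under 0.05 (limma with Benjamini-Hochberg adjustment over all genes), which is 27.3% of the collagens against 19.2% of all genes tested. For the risers this is 15.9% against 9.79% of all genes, and for the fallers 11.4% against 9.39%. The risers were Col1a1, Col1a2 and Col3a1 of the fibrillar group, Col4a1 and Col4a2 of the basement membrane, and Col6a1 and Col6a3 of the beaded filaments. The fallers were Col27a1, Col15a1, Col18a1, Col9a2 and Col20a1. The median difference of the 44 genes was -0.06, beside -0.01 for all genes. At an unadjusted p under 0.05 there were 20 collagens (29.6% of all genes). In 4 of 4 combinations of genotype and sex 7 collagens, the risers, had a higher mean on MCD diet (15.9%, beside 15.9% of all genes), and 12, the 5 fallers among them, a lower one (27.3%, beside 17.5%). The risers and fallers were called on the average of these same 4 differences, so their common sign is no separate result.

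**Figure D1:**
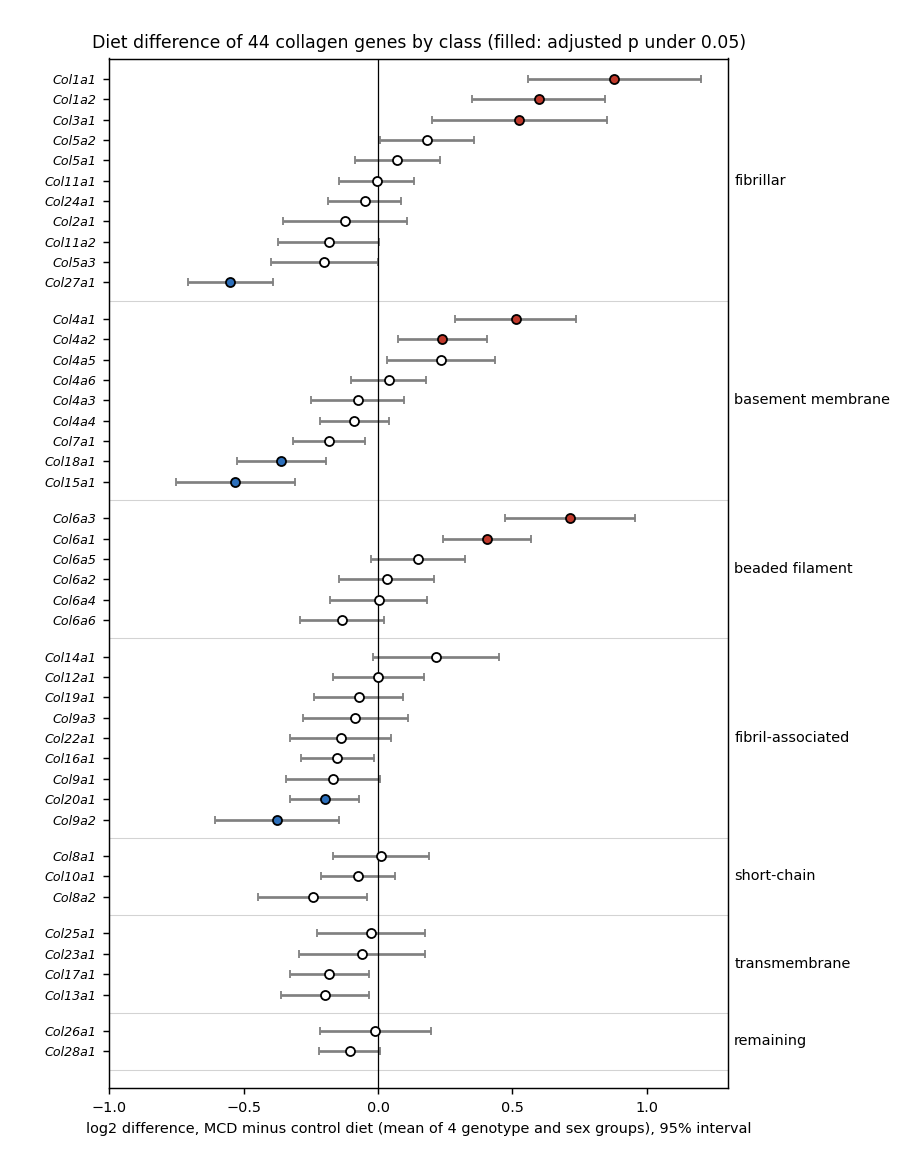
The log2 difference between MCD and control diet (horizontal axis), averaged over the 4 combinations of genotype and sex, is plotted for each of the 44 collagen genes by class, with points for estimates and bars for 95% intervals. Filled points passed at an adjusted p under 0.05: the 7 risers (red) reach from 0.24 for Col4a2 to 0.88 for Col1a1, and the 5 fallers (blue) from -0.20 for Col20a1 to -0.55 for Col27a1.

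Col1a1 (Entrez gene 12842), the α1 chain of type I collagen, had the largest difference of all collagens. Its 12 control arrays lay between 5.28 and 6.41 with a median of 5.56, and its 12 MCD arrays between 5.32 and 7.46 with a median of 6.51. The mean was 5.64 ± 0.33 (SD, n = 12) on control diet and 6.52 ± 0.59 on MCD diet, a log2 difference of 0.88 (SE 0.16, 1.84-fold, adjusted p = 0.000243). The ranges overlapped through 1 low MCD array, which is HepCAV1ko female replicate 3, and 1 high control array, which is HepCAV1wt male replicate 3 at 6.41. Col1a2 (Entrez gene 12843) encodes the α2 chain that joins 2 α1 chains in the type I helix. It lay between 5.06 and 5.88 on control diet (median 5.33) and between 5.19 and 6.63 on MCD diet (median 6.11), with a log2 difference of 0.60 (SE 0.12, 1.51-fold, adjusted p = 0.000846). Both chains of type I therefore rose, and both were highest in MCD-fed HepCAV1ko males.

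Col3a1 (Entrez gene 12825), whose 3 identical chains make type III collagen, lay between 5.28 and 6.51 on control diet (median 5.82) and between 5.12 and 7.33 on MCD diet (median 6.36). Its log2 difference was 0.53 (SE 0.16, 1.44-fold, adjusted p = 0.0202). This average rested on HepCAV1ko males: over the other 3 combinations, an average chosen after seeing the data, the difference was 0.23 (adjusted p = 0.501). The lowest of all 24 arrays for Col3a1 was an MCD array, HepCAV1ko female replicate 3.

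Among the other fibrillar genes only Col27a1 passed, and it fell. Col27a1 encodes a fibrillar chain that is known from growth cartilage. It lay between 4.99 and 5.81 on control diet (median 5.34) and between 4.63 and 5.25 on MCD diet (median 4.75). The mean fell from 5.38 ± 0.26 to 4.84 ± 0.21 (SD, n = 12), a log2 difference of -0.55 (SE 0.08, 1.46-fold lower, adjusted p = 1.61e-05), which was the lowest adjusted p of any collagen. The type V chains, which start and limit type I fibrils, did not pass: Col5a1 had a difference of 0.07 (adjusted p = 0.594), Col5a2 one of 0.18 (adjusted p = 0.153) and Col5a3 one of -0.20 (adjusted p = 0.164). The cartilage chains Col2a1, Col11a1 and Col11a2 and the chain Col24a1 had differences of -0.18 to -0.01 and did not pass either. In all, 3 fibrillar genes rose, 1 fell and 7 did not pass.

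**Figure D2:**
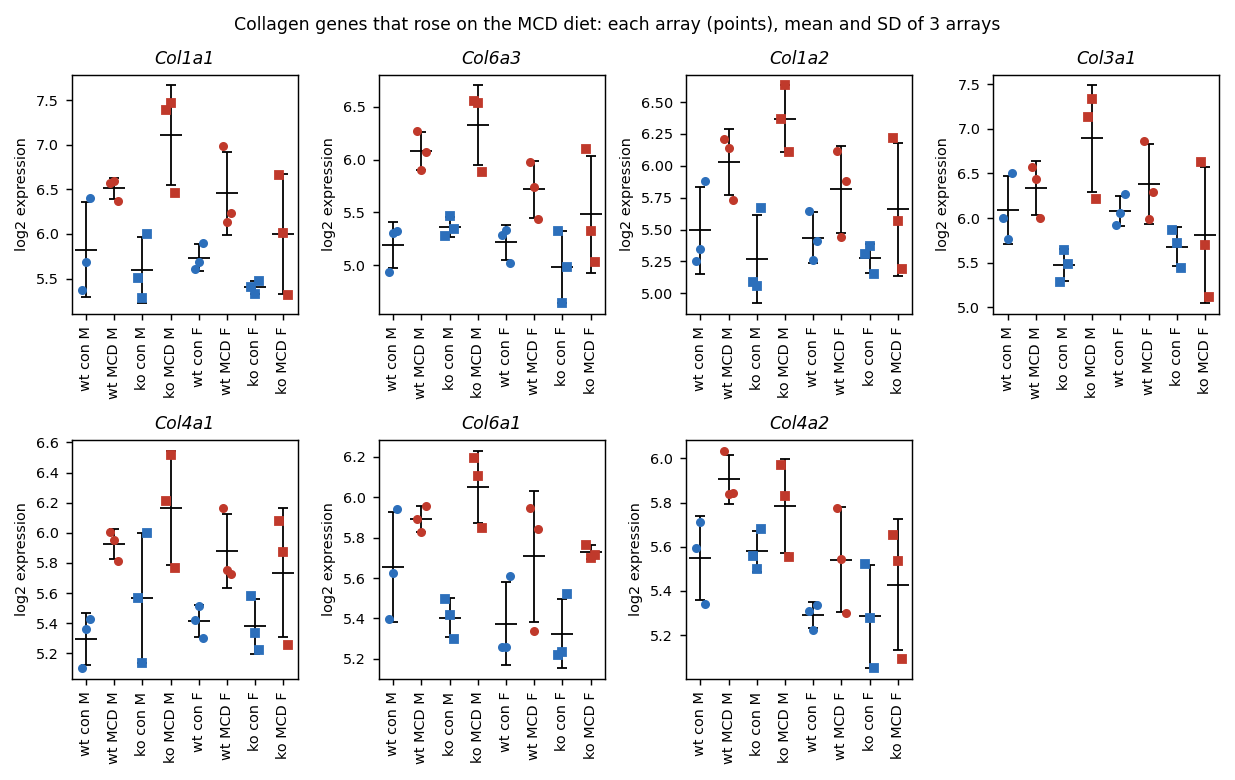
Log2 expression (vertical axis) of the 7 collagen genes that rose upon MCD diet is shown for each array in the 8 groups (horizontal axis; con, control diet; M, male; F, female), with control arrays in blue, MCD arrays in red, HepCAV1wt as circles and HepCAV1ko as squares, and with the group mean and SD as black lines. The mean of each MCD group is above that of its control group in all 7 panels. In HepCAV1ko females the lowest MCD array lies within or below the control group for every gene except Col6a1. It is at 5.32 for Col1a1, 5.19 for Col1a2, 5.12 for Col3a1, 5.25 for Col4a1, 5.09 for Col4a2 and 5.02 for Col6a3.

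The basement membrane collagens split. The ubiquitous type IV chains Col4a1 and Col4a2, which assemble together as 2 α1 chains and 1 α2 chain, rose. Col4a1 (Entrez gene 12826) lay between 5.10 and 5.999 on control diet (median 5.39) and between 5.25 and 6.52 on MCD diet (median 5.91), a log2 difference of 0.51 (SE 0.11, 1.43-fold, adjusted p = 0.00152). Col4a2 lay between 5.05 and 5.71 on control diet and between 5.09 and 6.04 on MCD diet, a smaller difference of 0.24 (SE 0.08, 1.18-fold, adjusted p = 0.039). The call of Col4a2 was close to the threshold and was kept in 16 of 31 other settings, with adjusted p from 0.0103 to 0.0811. The remaining 4 type IV chains make the nets of glomeruli and other special basement membranes. Col4a5 had a difference of 0.24 (adjusted p = 0.0998), and Col4a3, Col4a4 and Col4a6 lay between -0.09 and 0.04 and did not pass.

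Col15a1 and Col18a1, the multiplexin collagens of the basement membrane zone, both fell. Col18a1 carries the fragment endostatin at its end and is known to be made by hepatocytes. It fell from 8.75 ± 0.21 to 8.39 ± 0.23 (SD, n = 12), with control arrays between 8.41 and 9.12 and MCD arrays between 8.04 and 8.95, a log2 difference of -0.36 (SE 0.08, 1.28-fold lower, adjusted p = 0.00218). Col15a1, which is known from the basement membranes of vessels, fell from 4.58 ± 0.36 to 4.05 ± 0.18, a difference of -0.53 (SE 0.11, 1.44-fold lower, adjusted p = 0.000854). Its control arrays lay between 4.08 and 5.13 and its MCD arrays between 3.72 and 4.24, so the spread was wider on control diet. Col7a1, which forms the anchoring fibrils of skin, just missed with a difference of -0.18 (adjusted p = 0.052). Together 2 basement membrane genes rose, 2 fell and 5 did not pass.

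Of the type VI chains Col6a3 and Col6a1 rose. Col6a3, the long chain of the filament, lay between 4.64 and 5.47 on control diet (median 5.30) and between 5.02 and 6.55 on MCD diet (median 5.94). Its mean rose from 5.19 ± 0.24 to 5.90 ± 0.47 (SD, n = 12), a log2 difference of 0.71 (SE 0.12, 1.64-fold, adjusted p = 9.45e-05). Col6a1 lay between 5.22 and 5.94 on control diet and between 5.34 and 6.20 on MCD diet, a difference of 0.40 (SE 0.08, 1.32-fold, adjusted p = 0.000677). Col6a2, the third chain of the classical type VI helix, had nearly the same mean on both diets, 4.89 ± 0.19 and 4.92 ± 0.22, with a difference of 0.03 (95% interval -0.14 to 0.21, adjusted p = 0.857). The further chains Col6a4, Col6a5 and Col6a6 lay between -0.13 and 0.15 and did not pass. The type VI helix needs all 3 classical chains, and 2 of the 3 rose on the array.

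No fibril-associated, short-chain or transmembrane collagen rose in the average over the groups. Of the fibril-associated genes, which coat the surface of fibrils, Col9a2 and Col20a1 fell. Col9a2, a chain of the type IX collagen of cartilage, fell from 6.34 ± 0.20 to 5.96 ± 0.33 (SD, n = 12), a log2 difference of -0.38 (SE 0.11, 1.30-fold lower, adjusted p = 0.02). Its MCD arrays were spread from 5.49 to 6.42, and 5 of the 12 lay within the control range of 6.03 to 6.58. Col20a1 fell by 0.20 on the log2 scale (SE 0.06, adjusted p = 0.0247) from a mean of 3.57, below the median of all genes. Without HepCAV1ko males, a setting chosen after seeing the data, both lost their call. Col9a2 was then at -0.31 (adjusted p = 0.131) and Col20a1 at -0.19 (adjusted p = 0.085), so the size of Col20a1 hardly changed. Col20a1 lost its call also without HepCAV1ko MCD female replicate 1 (adjusted p = 0.0524) or HepCAV1wt MCD female replicate 1 (adjusted p = 0.0517). The other 7 fibril-associated genes lay between -0.17 and 0.21. The short-chain genes Col8a1, Col8a2 and Col10a1 lay between -0.24 and 0.01, with Col8a2, a chain of endothelial and corneal matrix, at -0.24 (adjusted p = 0.091). The transmembrane genes lay between -0.20 and -0.03, and 2 of the 4 came near the threshold, Col17a1 of the hemidesmosome at -0.18 (adjusted p = 0.0791) and Col13a1 at -0.20 (adjusted p = 0.087). Col26a1 and Col28a1 were at -0.01 and -0.11.

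**Figure D3:**
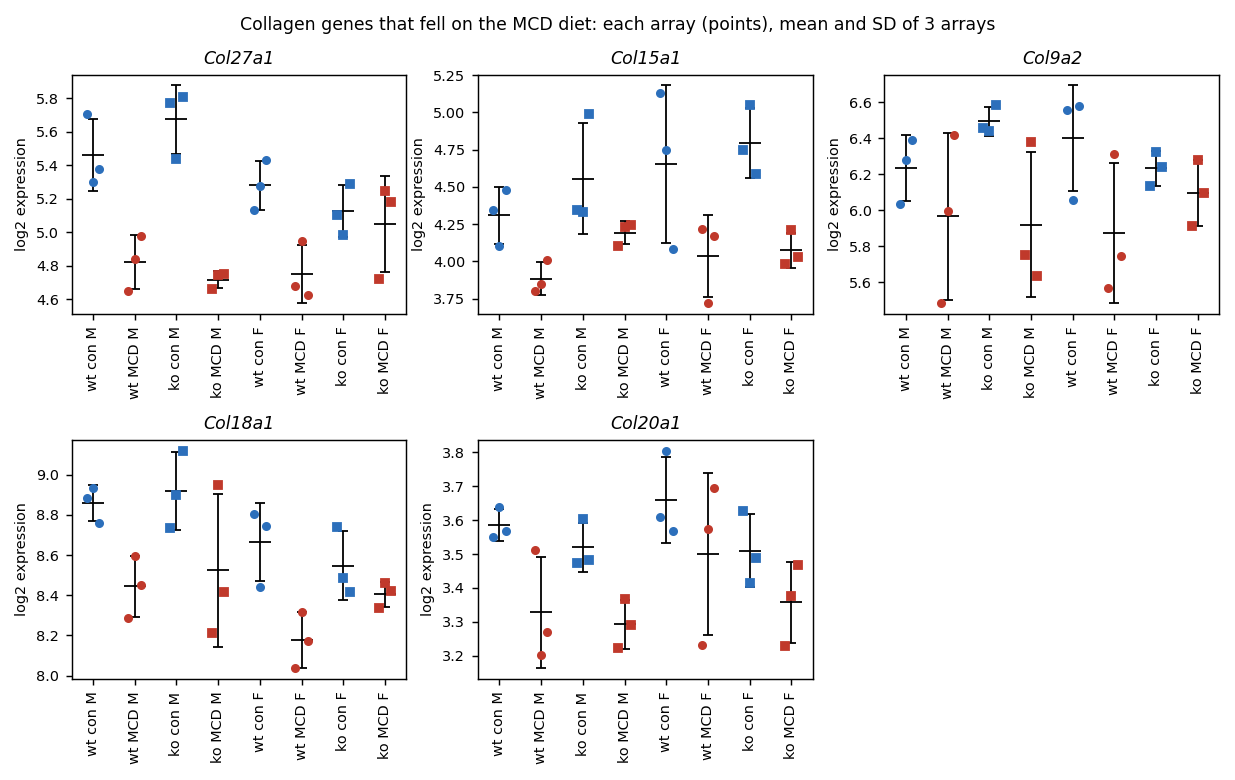
Log2 expression (vertical axis) of the 5 collagen genes that fell upon MCD diet is shown for each array in the 8 groups (horizontal axis; con, control diet; M, male; F, female), with colours, symbols and lines for diet, genotype, mean and SD as in the plot of the risers. The Col27a1 arrays of MCD-fed HepCAV1ko males (4.66 to 4.75) lie below all control arrays (4.99 to 5.81), while those of MCD-fed HepCAV1ko females reach 5.25.

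The calls were also counted by level. Of the 44 genes, 25 had a mean above the median of all genes in all 8 groups, 15 were below it in all 8 and 4 were on both sides. All 7 risers and 4 of the 5 fallers were among the 25 (44% called, beside 32.9% of all genes at that level). Among the 15 dim genes 1 passed, Col20a1 (6.67%, beside 4.25%), and among the 4 others 0 passed (beside 25.9%).

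Neighbouring collagen genes did not always move together. Col4a1 and Col4a2 lie head to head on chromosome 8, and both rose. Col6a1 and Col6a2 are adjacent on chromosome 10, where Col6a1 rose (0.40) and Col6a2 was at 0.03. Col3a1 and Col5a2 are adjacent on chromosome 1, where Col3a1 rose (0.53) and Col5a2 was at 0.18 (adjusted p = 0.153). The pairs Col4a3 with Col4a4 and Col4a5 with Col4a6 did not pass in any gene, with differences of -0.08 and -0.09 for the first pair and 0.24 and 0.04 for the second.

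The start of the Col4a1 and Col4a2 genes is shown because these 2 genes rose together and begin on opposite strands of the same few bases. In the RefSeq annotation (build GRCm38.p6) Col4a2 starts at position 11312805 on the plus strand and Col4a1 at 11312826 on the minus strand, so that the first bases of both transcripts overlap by 22 bases. In each line of sequence capitals mark short motifs of core promoters, searched on both strands. One is the GC box with the letters GGGCGG. Another is the box spelled CCAAT, whose reverse can share its last letters with a GC box. The last is the TATA box, here with the letters TATAAA.
Col4a2 and Col4a1 (chr8:11312805-11312826, plus strand): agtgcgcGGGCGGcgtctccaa
The 250 bases before the RefSeq start are shown for the 3 genes with the largest rise and the 2 with the largest fall among the genes with a window in the table. All are written 5′ to 3′ on the strand of the gene.
Col1a2 (chr6:4505368-4505617, plus strand): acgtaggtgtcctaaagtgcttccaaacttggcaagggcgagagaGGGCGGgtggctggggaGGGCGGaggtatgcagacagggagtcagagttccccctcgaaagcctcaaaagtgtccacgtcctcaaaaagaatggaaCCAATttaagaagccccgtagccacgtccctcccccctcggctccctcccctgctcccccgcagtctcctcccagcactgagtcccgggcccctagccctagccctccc
Col3a1 (chr1:45311288-45311537, plus strand): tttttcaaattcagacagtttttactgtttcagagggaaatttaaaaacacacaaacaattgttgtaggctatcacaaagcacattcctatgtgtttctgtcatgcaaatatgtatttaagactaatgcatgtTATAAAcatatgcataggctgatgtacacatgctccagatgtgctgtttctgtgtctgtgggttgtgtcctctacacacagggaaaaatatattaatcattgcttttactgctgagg
Col6a3 (chr1:90843972-90844221, minus strand): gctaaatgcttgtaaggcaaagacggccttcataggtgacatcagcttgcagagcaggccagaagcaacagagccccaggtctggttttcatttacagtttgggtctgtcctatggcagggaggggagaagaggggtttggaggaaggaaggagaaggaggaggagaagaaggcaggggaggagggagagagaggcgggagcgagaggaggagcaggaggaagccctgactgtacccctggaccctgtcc
Col27a1 (chr4:63215162-63215411, plus strand): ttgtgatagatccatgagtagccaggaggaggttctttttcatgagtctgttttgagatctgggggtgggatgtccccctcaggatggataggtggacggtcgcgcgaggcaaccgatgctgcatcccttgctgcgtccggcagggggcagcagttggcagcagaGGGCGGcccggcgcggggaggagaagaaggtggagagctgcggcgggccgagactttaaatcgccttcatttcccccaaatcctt
Col15a1 (chr4:47207762-47208011, plus strand): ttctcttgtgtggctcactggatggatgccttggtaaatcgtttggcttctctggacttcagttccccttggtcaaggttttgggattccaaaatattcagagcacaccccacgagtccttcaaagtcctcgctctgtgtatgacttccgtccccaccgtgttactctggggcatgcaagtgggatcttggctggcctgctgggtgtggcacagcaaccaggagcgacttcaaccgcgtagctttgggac
The Col1a2 window holds 2 GC boxes and 1 CCAAT box, and 62.0% of its bases are G or C, while the Col3a1 window holds 1 TATA box and no GC box and has 35.2% G and C. The Col6a3 and Col15a1 windows hold none of the 3 motifs (57.2% and 53.6% G and C), and the Col27a1 window holds 1 GC box (59.6%). The median window of all genes has 52.4% G and C. Over the 35 collagen genes with a window, a GC box was present in 21 (60.0%, beside 35.4% of all 27025 genes with a window), a CCAAT box in 13 (37.1%, beside 37.5%) and a TATA box in 5 (14.3%, beside 14.3%). In both shares a gene with several windows counts when any of them holds the motif. Of the 6 risers with a window, 2 had a GC box, 3 a CCAAT box and 1 a TATA box, and of the 5 fallers 3, 1 and 0. These counts describe letters in a window and do not show binding.

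Seen one combination at a time, HepCAV1ko males had the most calls and HepCAV1ko females none. In HepCAV1ko males 6 collagens rose and 1 fell (15.9% together, beside 6.64% of all genes, of which 3.62% rose and 3.02% fell). In HepCAV1wt males 1 rose and 1 fell (4.55%, beside 4.37%, of which 2.28% rose and 2.09% fell), and in HepCAV1wt females 1 fell (2.27%, beside 4.92%). In HepCAV1ko females limma called 0 collagens (1.64% of all genes), 4 were at an unadjusted p under 0.05 (11.5% of all genes), and the methods' t-test with Benjamini-Hochberg adjustment also called 0. The arrays of both diets did not overlap for 15 collagens in HepCAV1wt males (34.1%, beside 20.7% of all genes), 11 in HepCAV1wt females (25%, beside 20.7%), 14 in HepCAV1ko males (31.8%, beside 23.3%) and 5 in HepCAV1ko females (11.4%, beside 16.5%). None of these counts tests whether the combinations differ, which is given further on.

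In HepCAV1ko males Col1a1 was 5.51, 5.28 and 6.0 on control diet and 7.39, 7.46 and 6.46 on MCD diet, a log2 difference of 1.51 (SE 0.31, 2.85-fold, adjusted p = 0.00379). Col3a1 was 5.28, 5.64 and 5.49 on control diet and 7.13, 7.33 and 6.22 on MCD diet, a difference of 1.42 (SE 0.31, adjusted p = 0.00677). Col1a2 was 5.09, 5.06 and 5.67 against 6.37, 6.63 and 6.10, a difference of 1.10 (SE 0.24, adjusted p = 0.00613). For these 3 chains of the scar collagens all MCD arrays lay above all control arrays, with the third MCD array the lowest each time. Col6a3 (0.96, adjusted p = 0.0133), Col14a1 (0.87, adjusted p = 0.0211) and Col6a1 (0.65, adjusted p = 0.0147) rose as well, and Col27a1 fell from 5.77, 5.44 and 5.81 to 4.66, 4.74 and 4.75 (-0.96, SE 0.15, adjusted p = 0.00038). Leaving out single arrays, the call of Col14a1 was lost without control replicate 3 (adjusted p = 0.153) and MCD replicate 1 or 3 (0.0934 and 0.06), that of Col6a1 without control replicate 3 (0.065) and MCD replicate 1 or 2 (0.0826 and 0.0536), and that of Col6a3 without MCD replicate 1 or 2 (0.0788 and 0.0648). On the same values the methods' t-test called 0 collagens after adjustment (lowest adjusted p = 0.103, for Col27a1).

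In HepCAV1wt males Col6a3 was 4.94, 5.31 and 5.32 on control diet and 6.27, 5.90 and 6.07 on MCD diet, a log2 difference of 0.89 (SE 0.23, adjusted p = 0.0278). The arrays did not overlap, yet the call was lost without any 1 of 5 of the 6 arrays, all but MCD replicate 2, with adjusted p from 0.0517 to 0.141. Col27a1 was 5.70, 5.30 and 5.38 against 4.65, 4.84 and 4.98, a difference of -0.64 (SE 0.15, adjusted p = 0.017), lost without control replicate 1 (0.116) or MCD replicate 1 (0.0868). The type I and III chains did not pass here: Col1a1 was 5.37, 5.69 and 6.41 on control diet and 6.57, 6.59 and 6.37 on MCD diet (0.69, adjusted p = 0.262). The MCD arrays of Col1a1 lay close together, and 1 of the control arrays was as high as them.

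In HepCAV1wt females Col27a1 was 5.13, 5.28 and 5.43 on control diet and 4.68, 4.95 and 4.63 on MCD diet, a log2 difference of -0.53 (SE 0.15, adjusted p = 0.0494). This call stood at the threshold: it was lost in 17 of 24 fits that left out 1 array of any group, with adjusted p from 0.0507 to 0.18, and with the replicate number as a block (adjusted p = 0.0502). Col1a1 was 5.61, 5.69 and 5.90 against 6.99, 6.14 and 6.24 (0.72, adjusted p = 0.222), with no overlap of the arrays. Its size was close to that in HepCAV1wt males.

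In HepCAV1ko females Col1a1 was 5.40, 5.33 and 5.47 on control diet and 6.67, 6.01 and 5.32 on MCD diet, a log2 difference of 0.60 (SE 0.31, adjusted p = 0.492). Col3a1 was 5.87, 5.72 and 5.44 against 6.62, 5.70 and 5.12 (0.13, adjusted p = 0.947). The 3 MCD arrays of this group were far apart. For all 7 collagens that rose in the average over the groups replicate 1 was the highest of them, and for 6 of the 7 replicate 3 was the lowest. Without replicate 3 the difference of Col1a1 was 0.94 (adjusted p = 0.139), that of Col3a1 0.48 (adjusted p = 0.608) and that of Col6a3 0.73 (adjusted p = 0.133), and without replicate 1 they were 0.26, -0.27 and 0.19. The mean of 7 macrophage markers was 7.69, 6.85 and 6.29 in replicates 1, 2 and 3. Of the 7, 5 had replicate 1 highest and replicate 3 lowest, among them Gpnmb at 7.47, 4.30 and 3.76, while Trem2 was lowest in replicate 2 (6.32, 5.24 and 5.26) and Clec4f highest in replicate 2 (8.27, 8.44 and 8.16). The proteoglycan Dcn was 10.87, 10.53 and 10.49, above the 9.96, 9.69 and 9.85 of the control-fed group. The proteoglycan Lum was 6.96, 5.88 and 5.37, against 5.33, 4.84 and 5.25 in the control-fed group, so its replicate 3 lay close to a control array. The part of these differences between arrays in the result was not tested.

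**Figure D4:**
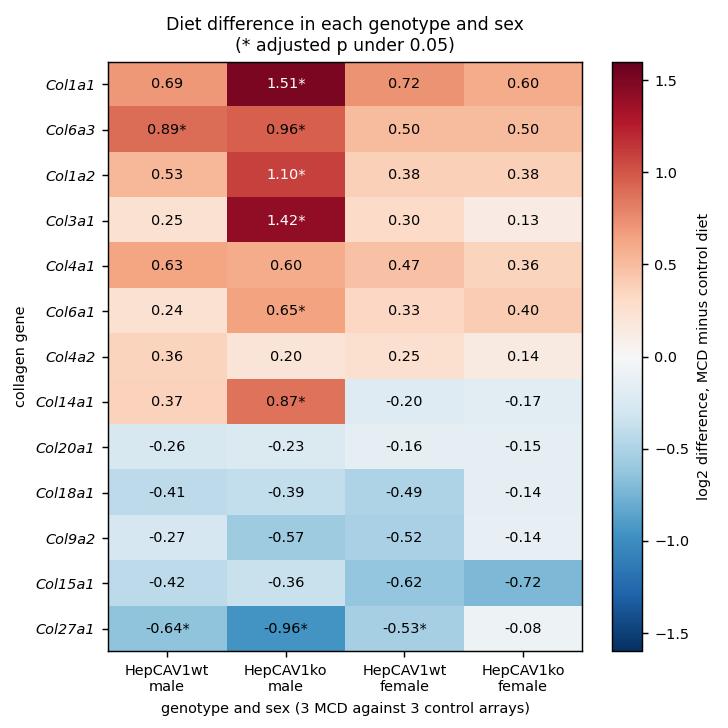
Each cell gives the log2 difference between MCD and control diet (colour scale, red higher and blue lower upon MCD diet) of one collagen gene (vertical axis) in one combination of genotype and sex (horizontal axis), with a star for an adjusted p under 0.05. HepCAV1ko males hold 7 of the 10 stars, with Col1a1 at 1.51 and Col27a1 at -0.96, and Col14a1 is the 1 gene shown whose sign differs between males (0.37 and 0.87) and females (-0.20 and -0.17).

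The differences between the combinations did not pass when tested themselves. For diet by sex, averaged over the genotypes, 0 of 44 collagens passed (0.534% of all genes did), and 4 were at an unadjusted p under 0.05 (8.48%). Col14a1 had the largest difference, with a diet effect of 0.62 in males and -0.19 in females (difference 0.80, SE 0.22, 95% interval 0.34 to 1.27, adjusted p = 0.16). Col27a1 followed, with -0.80 in males and -0.30 in females (difference -0.50, SE 0.15, adjusted p = 0.229). Col5a2 (0.39, adjusted p = 0.521) and Col13a1 (-0.33, adjusted p = 0.582) were the other 2. Col3a1 had 0.83 in males and 0.22 in females (difference 0.62, 95% interval -0.03 to 1.27, adjusted p = 0.626). For diet by genotype, averaged over the sexes, 0 collagens passed (0% of all genes), and 0 were at an unadjusted p under 0.05 (3.3%). The 95% intervals there, which are not adjusted for the number of genes, reached 0.23 to 0.65 to either side of the estimates. A difference in diet effect of that size could not be told from none. Col3a1 had a diet effect of 0.78 in HepCAV1ko and 0.27 in HepCAV1wt (difference 0.50, 95% interval -0.15 to 1.15).

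The knockout itself moved no collagen past the threshold. HepCAV1ko and HepCAV1wt were compared within each diet and sex, and limma called 0 of 44 in each of the 4 comparisons, where 0.00405% of all genes passed in control-fed males and 0% in the others. At an unadjusted p under 0.05 there were 2 collagens in control-fed males (5.48% of all genes), 1 in control-fed females (5.57%), 0 in MCD-fed males (4.23%) and 1 in MCD-fed females (3.92%), and the methods' t-test called 0 after adjustment in all 4. The 2 in control-fed males were Col14a1, at 6.06 ± 0.55 in HepCAV1ko and 6.56 ± 0.13 in HepCAV1wt (SD, n = 3; log2 difference -0.50, adjusted p = 0.869), and Col23a1, a transmembrane collagen, at 0.50 (adjusted p = 0.869). Col9a3 stood at 0.46 in control-fed females (adjusted p = 0.882), and Col11a2 at 0.38 in MCD-fed females (adjusted p = 0.999). Over all members the differences reached from -0.62 for Col3a1 in control-fed males to 0.60 for Col1a1 in MCD-fed males. The median collagen had a 95% interval of 0.35 to either side, which is not adjusted for the number of genes. With 3 arrays a group, smaller differences between genotypes could not be told from none. Differences of 0.50 and more did not pass after adjustment either, so larger ones are not excluded.

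Col14a1 was the 1 collagen that differed between the sexes. It encodes a fibril-associated collagen found in tendon, skin and the stroma of organs. In control-fed males it was 6.45, 6.70 and 6.55 in HepCAV1wt and 6.48, 6.26 and 5.44 in HepCAV1ko. In control-fed females it was 7.10, 7.13 and 7.45 in HepCAV1wt and 7.19, 6.77 and 6.76 in HepCAV1ko. The 6 male and 6 female arrays did not overlap (2.8% of all genes), and the means were 6.31 ± 0.45 and 7.07 ± 0.26 (SD, n = 6), a log2 difference of -0.75 (male minus female, SE 0.16, adjusted p = 0.00665, beside 3.45% of all genes called). On MCD diet the males were at 6.93 ± 0.12 in HepCAV1wt and 6.93 ± 0.15 in HepCAV1ko (SD, n = 3; the call in HepCAV1ko is given above). The females were at 7.02 ± 0.41 and 6.74 ± 0.30 (SD, n = 3), and the sexes had a difference of 0.05. The diet by sex difference of Col14a1 did not pass (adjusted p = 0.16, limma). Of the stellate cell markers, 2 of 10 were also lower in control-fed males, and of the fibril proteoglycans 2 of 8, with none higher. The part of a cell type in the sex difference was not tested.

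**Figure D5:**
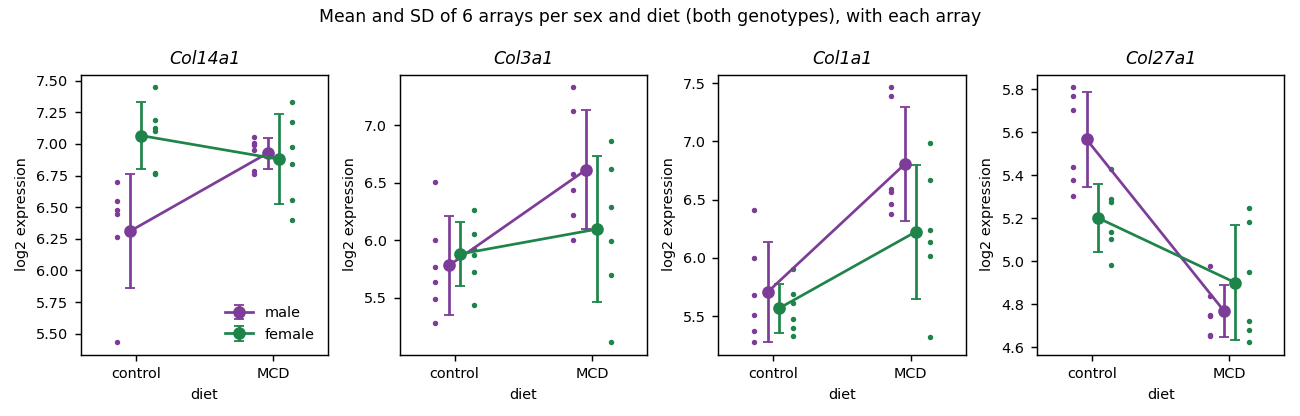
Log2 expression (vertical axis) is plotted against diet (horizontal axis) for males (purple) and females (green) of both genotypes together, with large points and bars for the mean and SD of 6 arrays and small points for each array. Control-fed males lie below control-fed females for Col14a1 (6.31 against 7.07) and the sexes meet on MCD diet. For Col3a1, Col1a1 and Col27a1 the male line is the steeper one. The difference in diet effect between the sexes did not pass for any gene shown, Col14a1 included.

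The other 43 collagens did not pass between the sexes on control diet, where 29 of the 44 had a higher mean in males and 15 in females (12663 and 12041 of all genes). On control diet Col27a1 was 5.57 ± 0.22 in males and 5.20 ± 0.16 in females (SD, n = 6; difference 0.36, adjusted p = 0.0698), and Col13a1, Col18a1, Col4a2 and Col5a3 had differences of 0.28 to 0.32 (adjusted p = 0.199 to 0.238). In the other direction Col15a1 was at -0.29, Col4a5 at -0.26 and Col5a2 at -0.21 (adjusted p = 0.364 to 0.419). On MCD diet 0 collagens passed (0.538% of all genes did), and 8 were at an unadjusted p under 0.05 (8.2%), all 8 higher in males. The largest were Col6a3 at 0.60 (adjusted p = 0.142), Col1a1 at 0.58 (adjusted p = 0.411), Col3a1 at 0.52 (adjusted p = 0.523) and Col1a2 at 0.46 (adjusted p = 0.382).

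Genes whose products fold, process, bind and degrade collagen were counted in the same average diet comparison, where 9.79% of all genes rose and 9.39% fell. By level, 32.9% of genes above the median in all 8 groups passed in either direction, and 4.25% of those below it in all 8. The lists hold genes of both kinds. Of 19 genes for folding and modification of the chains in the endoplasmic reticulum 5 rose and 1 fell, with a median of 0.12. P4hb, the β subunit of prolyl 4-hydroxylase and a general disulfide isomerase, rose by 0.52 (adjusted p = 4.33e-07), and Colgalt1, which adds galactose to hydroxylysine, by 0.47 (adjusted p = 8.43e-05). P3h1, a prolyl 3-hydroxylase, rose by 0.34 (adjusted p = 0.0305), and Tmem38b, a potassium channel of the reticulum, fell by 0.19 (adjusted p = 0.0281). The catalytic subunits P4ha1, P4ha2 and P4ha3 did not pass, with differences of -0.05 to 0.05. The median of this list is set beside -0.01 for all genes.

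Of 12 genes for propeptide removal and cross-linking 2 rose and 2 fell. Loxl1, an oxidase of the lysyl oxidase family that cross-links matrix fibres, rose by 0.40 (adjusted p = 0.00491) from a dim level of 3.65. Pcolce, which enhances the cleavage of procollagen, rose by 0.30 (adjusted p = 0.00247). Bmp1, the procollagen C-proteinase, fell by 0.52 (SE 0.08, adjusted p = 5.31e-05), from 8.40 to 7.89. Pcolce2, a homologue of Pcolce, fell by 0.23 (adjusted p = 0.0368). So Bmp1 and Pcolce went in opposite directions, while Pcolce2 went the same way as Bmp1. Lox itself had a difference of 0.18 at a dim level (adjusted p = 0.149).

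Of 9 collagenases and inhibitors 6 rose and 0 fell, with a median of 0.43. Mmp13, the main interstitial collagenase of the mouse, rose by 1.58 (SE 0.25, adjusted p = 8.43e-05), more than any collagen. It was dim on control diet (2.64) and at 4.22 on MCD diet. Mmp2, a gelatinase, rose by 0.74 (adjusted p = 5.09e-05) and Mmp14, the membrane proteinase that activates it, by 0.69 (adjusted p = 1.66e-06). Of the inhibitors, Timp2 rose by 0.43 (adjusted p = 0.00463) and Timp1, dim on both diets, by 0.42 (adjusted p = 0.035). Timp3 just missed at 0.45 (adjusted p = 0.056). Of 8 fibril proteoglycans 5 rose and 0 fell, with a median of 0.48. Lum rose by 1.29 (adjusted p = 3.08e-06), Dcn by 1.00 (adjusted p = 6.23e-10) and Bgn by 0.63 (adjusted p = 8.53e-06), all small leucine-rich proteins that bind to fibrils. Of 16 other basement membrane genes 6 rose and 2 fell: Nid1, which links laminin to type IV collagen, rose by 1.19 (adjusted p = 2.25e-06) and the laminin chain Lamb3 by 0.54 (adjusted p = 0.00238), while Lama3 fell by 0.28 (adjusted p = 0.018) and Nid2 by 0.25 (adjusted p = 0.0172). Of 12 collagen receptors and uptake genes 1 rose, the leukocyte receptor Lair1 (0.74, adjusted p = 0.000145).

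Markers of several cell types moved with diet beside the collagens. In this comparison 9.79% of all genes rose and 9.39% fell. Of the genes above the median of all genes in all 8 groups 32.9% passed in either direction. Of 10 stellate cell markers 6 rose and 0 fell, with Lrat, which stores retinol, at 0.73 (adjusted p = 7.21e-06), Pdgfrb at 0.48 (adjusted p = 0.000296) and Gdf2 at 0.46 (adjusted p = 0.000112). Colec11 just missed in the other direction at -0.19 (adjusted p = 0.056). The mean of the list lay between 6.10 and 6.75 on control arrays and between 6.59 and 6.96 on MCD arrays. Of 8 myofibroblast markers 2 rose, Tagln and Timp1, and Timp1 was dim on both diets (2.36 on control and 2.77 on MCD diet). Acta2, the actin of activated stellate cells, had a difference of 0.14 (adjusted p = 0.652). The mean of the list was 3.86 to 4.47 on control and 3.98 to 4.55 on MCD arrays. Of 7 macrophage markers 4 rose, with Gpnmb at 3.21 (adjusted p = 2.84e-05, dim on control diet at 3.19), Cd68 at 1.39 and Trem2 at 1.28. The list mean went from a range of 5.97 to 6.53 on control diet to one of 6.29 to 7.73 on MCD diet. Of 6 portal fibroblast markers 1 rose (Cd34, dim on control diet at 3.52), and Gas6 just missed at 0.51 (adjusted p = 0.0514). Of 8 markers of sinusoidal endothelium 1 rose (Lyve1), of 5 cholangiocyte markers 1 (Sox9), and of 5 hepatocyte markers 0. The chondrocyte list had means of 3.31 to 3.73. Of its 4 markers 1 rose, again Sox9 (5.07 on control and 5.56 on MCD diet), and the other 3, Acan, Comp and Matn1, were dim on both diets and did not pass. Of 3 skeletal muscle markers 0 passed. The part of changes in cell types in the collagen differences was not tested.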

How the data were processed

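Total RNA of whole liver was hybridised to Affymetrix MoGene 2.0 ST arrays. The authors deposited log2 values made with RMA, which corrects background, gives all arrays one distribution and summarises the probes of a gene; software versions and the probe set build are not given in the sources used here. Of 25428 features 24705 had a gene symbol and 723 had none, and 24704 genes were tested after keeping the brighter feature of 1 symbol. Groups came from the sample labels. limma 3.58.1 in R 4.3.3 estimated 8 group means, each from 3 arrays (16 residual degrees of freedom), with moderated variances and two-sided tests. The threshold was an adjusted p of 0.05 (Benjamini-Hochberg over all genes); intervals are 95%. The number of arrays limits the precision. The fit was tested on simulated data.

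Members and gene lists were chosen with earlier results of these data known. All members are accounted for by class. Values are given for Col1a1, Col1a2, Col3a1, Col4a1, the members past the threshold and those that just missed it. From each other list they are given for at most 3 genes per direction by size, for Timp1 and Timp2, and for some genes that did not pass. Alternatives were the variance model, array weights, dim genes, centring, a replicate block, fewer arrays and the t-test of the methods, which name a t-test or ANOVA. Replicate numbers were not used as pairs, because in 0 of 28 pairs of groups was every same-number correlation of array deviations over 0.1. The highest mean of these correlations in a pair of groups was 0.151, so a weak joint deviation of same-numbered arrays is not excluded. Promoter windows are RefSeq sequences of GRCm38.p6.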

Additional observations from a re-analysis of the deposited data

How the results depend on the processing

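When single arrays were left out, counts of collagens called changed little for the average over the groups and more for single combinations. Without all HepCAV1ko males the average count went from 12 to 8. Leaving out 1 array at a time, the count was 10 to 14 (main 12) for the average diet comparison, 4 to 7 (main 7) in HepCAV1ko males, 0 to 2 (main 2) in HepCAV1wt males, 0 to 1 (main 1) in HepCAV1wt females and 0 to 1 (main 0) in HepCAV1ko females. It was 1 to 2 (main 1) for the sexes on control diet, 0 to 1 (main 0) on MCD diet, and 0 to 0 for the comparisons of genotypes and for both differences of differences. In HepCAV1wt males the count was 1 without moderation of variances and 1 with only the 6 arrays, and 0 with the methods' t-test. In HepCAV1wt females it was 0 without moderation, with an intensity trend, with array weights, with the replicate block, with only the 6 arrays and with the t-test. In HepCAV1ko males the t-test gave 0, in HepCAV1ko females array weights gave 1 (Col15a1, adjusted p = 0.0433). With dim genes left out, the sexes on control diet gave 2. With the replicate block the average diet count was 13, and apart from this and the HepCAV1wt females it changed no count of calls. The causes were not tested, except that fewer arrays were fitted where arrays were left out. No difference past the threshold changed sign. Across 31 other settings of the average diet comparison 8 genes kept their call in all: Col1a1, Col1a2, Col4a1, Col6a1, Col6a3, Col15a1, Col18a1 and Col27a1. Without HepCAV1ko males, a setting chosen after seeing the data, 8 genes passed, and Col4a2 was at 0.25 (adjusted p = 0.0804). The deposited values give no background per probe, so what dim probes could detect was not tested.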
